A study of Mus musculus with 6 samples.

Results

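Collagen IV, the nidogens, perlecan, agrin, fibronectin and SPARC were followed here as 8 genes (Col4a1, Col4a2, Nid1, Nid2, Hspg2, Agrn, Fn1 and Sparc), found by gene symbol among the 10989 genes of the deposited table. All 8 had a row, and all 8 had passed the submitters' minimum of 50 counts in both fractions. RNA was sequenced from brain of mice carrying Tie2-cre and NuTRAP, a reporter that Cre switches on and that tags ribosomes with EGFP; the titles of all 6 libraries also carry the label WT. In the 3 Positive libraries the RNA came from brain cells sorted as EGFP positive, CD31 positive and CD11b negative; CD31 is a surface protein of endothelial cells and CD11b one of myeloid cells. The 3 Input libraries are a fraction that the labels name Input without further definition, and both fractions carry the replicate numbers 1222, 1223 and 1227. Tie2-cre is driven by the promoter of Tek, which is known to be active in endothelial cells and in part of the blood cell lineage.

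The basement membrane is a thin sheet of matrix that surrounds brain vessels. Collagen IV and laminin each build a network in it, nidogens bridge the networks, and the heparan sulfate proteoglycans perlecan and agrin add binding sites for growth factors and cell receptors. In brain the sheet lies between endothelial cells, pericytes and astrocyte endfeet, and all of these cell types are known to secrete parts of it. Fibronectin is a glycoprotein bound by integrins, and SPARC is a secreted collagen-binding protein that modulates the matrix.

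Col4a1 and Col4a2 encode the most widespread pair of collagen IV chains and lie head to head on mouse chromosome 8. In the deposited table (mm10) Col4a1 runs on the minus strand from 11198423 to 11312826 and Col4a2 on the plus strand from 11312829 to 11449287, so that their starts are 3 bases apart. RefSeq (GRCm38.p6) places the starts at 11312826 and 11312805, where the first exons overlap by 22 bases. A stretch of 30 bases, from 40 to 11 bases before the RefSeq start of Col4a2 and inside the first exon of Col4a1, is shown because it lies beside the starts of both genes, with the match to CCAAT in capitals. For Hspg2 and Agrn, the perlecan and agrin genes, which both lie on chromosome 4, 100 bases upstream of all annotated starts are shown, with each GGGCGG match (either strand) in capitals.
Col4a1/Col4a2 (chr8:11312765-11312794, plus strand): ggagctccCCAATttgttggcgctgccccc
Hspg2 (chr4:137468651-137468750, plus strand): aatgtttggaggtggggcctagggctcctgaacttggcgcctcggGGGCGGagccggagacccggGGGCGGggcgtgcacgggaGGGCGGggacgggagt
Agrn (chr4:156197534-156197633, minus strand): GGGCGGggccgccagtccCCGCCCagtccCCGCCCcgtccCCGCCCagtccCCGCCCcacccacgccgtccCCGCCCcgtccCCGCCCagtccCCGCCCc

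Promoter windows of 300 bases from RefSeq (GRCm38.p6) were found for 6 of the 8 genes, with 7 windows in all. GGGCGG, searched on both strands, was present in windows of 5 of the 6 genes and in 35.7% of all 32851 promoter windows. CCAAT, also on both strands, was present in windows of 3 of the 6 (Col4a1, Col4a2 and Nid1) against 37.4% of all windows. The windows of Col4a1 and Col4a2 overlap in part and held 1 CCAAT match each, at different sites. The match shown above is that of the Col4a2 window and does not lie whole in the Col4a1 window. TATAAA was in none of the 7 windows and in 13.6% of all. The Sparc window held none of these 3 motifs. The matches describe the letters in these windows only.

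Nid1 lies on chromosome 13 (13437602 to 13512275, plus strand) and Nid2 on chromosome 14 (19751257 to 19811787, plus strand). Hspg2 lies on chromosome 4 (137468803 to 137570630, plus strand), as does Agrn (156165290 to 156197488, minus strand). Fn1 lies on chromosome 1 (71585473 to 71653234, minus strand) and Sparc on chromosome 11 (55394501 to 55420080, minus strand). In GENCODE M21, exons of genes on the opposite strand overlap 437 exon bases of Nid2 (Rtraf, 8.45% of its exon bases), 292 of Fn1 (Apol7d), 143 of Nid1 (Gm48682) and 43 of Col4a2 (Gm15419). The kit keeps strand, but the use of strand in counting is not given in the sources used here, so reads of these partners could not be told apart at those bases.

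Summed estimated counts ran from 4772866 to 52283556 per library, and both 1223 libraries were the shallowest of their fraction. Levels are given in CPM, estimated counts per 1000000 counts of the library, with library sizes scaled by TMM. The lowest count of any of the 8 genes was 223 (Nid2 in Input 1223). The gate was visible in the RNA: Pecam1, which encodes CD31, had a log2 fold change of 2.85 ± 0.13 (SE), Tek 2.76 ± 0.18 and Itgam, which encodes CD11b, -2.77 ± 0.31 (edgeR adjusted p = 2.7e-06, 5.47e-06 and 9.81e-05). All 15 endothelial markers rose, against 26.1% of all genes tested. Their log2 fold changes ran from 2.52 to 3.20 with a median of 2.81. No label states whether a replicate number is 1 animal, although the series text calls the replicates biological, so p-values measure the spread between these libraries.

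All 8 genes passed edgeR's quasi-likelihood test as higher in Positive than in Input at an adjusted p under 0.05. Of all genes tested 26.1% were higher, 29.4% lower and 55.5% called in either direction. All 8 also had every Positive library above every Input library, which held for 31.8% of all genes. Their log2 fold changes ran from 1.17 (Sparc) to 2.77 (Col4a2) with a median of 2.38, beside a median of 0.03 over all genes tested. The 8 genes together made up 0.453% ± 0.034 (SD, n = 3) of the counts in Input and 1.51% ± 0.18 in Positive. The comparison gives levels relative to the Input fraction, and in such bulk libraries fewer cells of a type and less RNA per cell cannot be told apart.

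**Figure D1:**
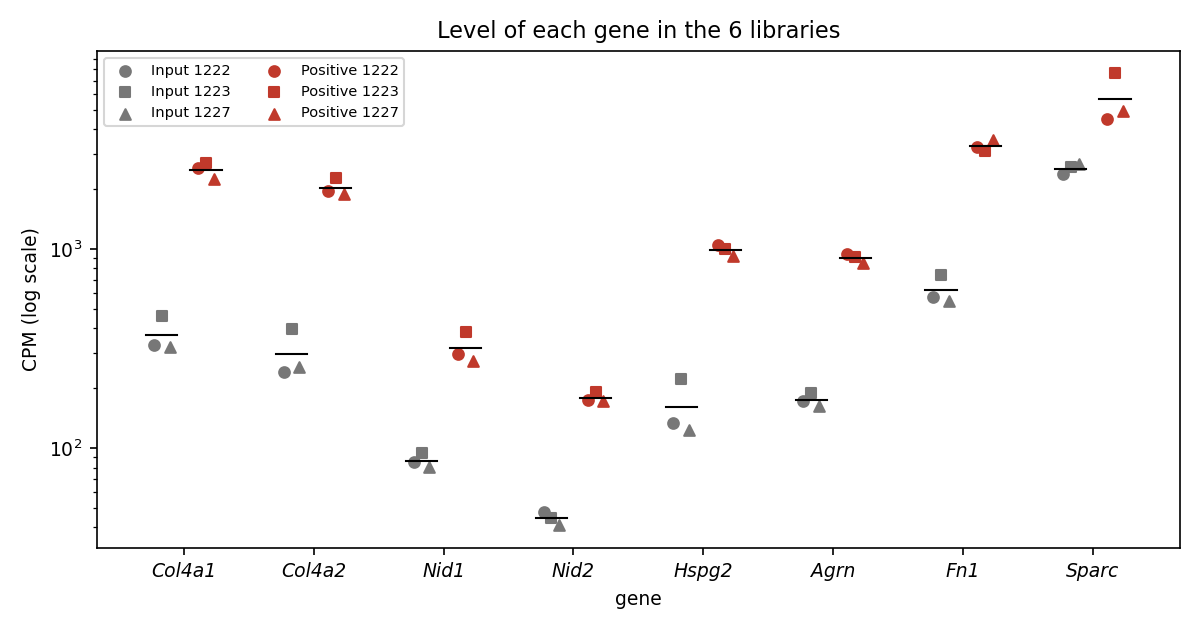
Level of each of the 8 genes in the 6 libraries, in CPM (log scale); symbols mark the replicate number, colours the fraction, and black lines the mean of 3 libraries. All Positive points lie above all Input points of the same gene, with the narrowest separation for Sparc (highest Input 2674 CPM, lowest Positive 4496 CPM).

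The collagen IV chains and Hspg2 had the highest fold changes of the 8, and differences among these 3 were not tested. Without Input 1223 the log2 fold change was 2.94 for Hspg2, 2.94 for Col4a1 and 3.03 for Col4a2. Col4a1 stood at 328.8, 462.5 and 322.3 CPM in Input 1222, 1223 and 1227 and at 2559, 2707 and 2251 CPM in Positive 1222, 1223 and 1227. Col4a2 stood at 240.1, 398.2 and 257.2 CPM in Input and at 1949, 2276 and 1884 CPM in Positive, in the same order. For both genes library 1223 was the highest in each fraction, and the fractions did not overlap. The mean of Col4a1 went from 371.2 ± 79.1 to 2506 ± 233 CPM (SD, n = 3), and its log2 fold change was 2.76 ± 0.19 (SE; edgeR adjusted p = 7.21e-06). That of Col4a2 went from 298.5 ± 86.8 to 2037 ± 210 CPM, and the log2 fold change was 2.77 ± 0.22 (adjusted p = 1.48e-05).

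The ratio of the chains overlapped between fractions. Estimated counts of Col4a2 were 0.796 ± 0.065 times those of Col4a1 in Input and 0.813 ± 0.045 times in Positive (SD, n = 3, not per length). The log2 ratio differed by 0.03 between fractions, less than its SD of 0.12 in Input (two-sided exact permutation test, p = 0.7, the same after adjustment over the 5 ratios compared). With 3 libraries against 3 the smallest p this test allows is 0.1.

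The nidogens had smaller fold changes than the collagen IV chains, and the difference was not tested. Nid1 stood at 85.4, 94.3 and 80.5 CPM in Input 1222, 1223 and 1227 and at 296.4, 383.8 and 275.2 CPM in Positive. Nid2 stood at 47.8, 44.6 and 41.0 CPM in Input and at 173.6, 191.8 and 171.9 CPM in Positive. Positive 1223 was the highest library for both, and neither gene overlapped between fractions. The log2 fold change was 1.88 ± 0.16 (SE) for Nid1 and 2.01 ± 0.13 for Nid2 (edgeR adjusted p = 2.07e-05 and 5.46e-06), which corresponds to a 3.67-fold and a 4.03-fold higher level. Nid2 was counted at 0.514 ± 0.044 times Nid1 in Input and 0.570 ± 0.064 times in Positive (SD, n = 3), with overlapping fractions (exact permutation p = 0.3, adjusted 0.5). Within replicate numbers 1222, 1223 and 1227 the log2 ratio was higher in Positive by 0.065, 0.081 and 0.29. Paired by number, an exact sign-flip test of 3 differences cannot go below 0.25, and it gave an adjusted p of 0.42 over the 5 ratios.

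Of the 2 proteoglycans, Hspg2 had a log2 fold change of 2.63 ± 0.24 (SE) and Agrn one of 2.37 ± 0.13 (edgeR adjusted p = 2.83e-05 and 3.36e-06). Hspg2, which encodes perlecan, stood at 134.0, 223.6 and 122.9 CPM in Input 1222, 1223 and 1227 and at 1045, 1001 and 921.9 CPM in Positive. Agrn, which encodes agrin, stood at 172.7, 190.4 and 162.7 CPM in Input and at 949.1, 911.3 and 850.1 CPM in Positive. In Positive the 2 genes kept almost 1 ratio, with Hspg2 at 1.10, 1.10 and 1.08 times Agrn. In Input the ratio was 0.776 and 0.755 in 1222 and 1227 but 1.17 in 1223. The log2 ratio was thus -0.18 ± 0.36 in Input and 0.13 ± 0.01 in Positive (SD, n = 3), and the fractions overlapped (exact permutation p = 0.4, adjusted 0.5).

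Input 1223 was the highest Input library for Hspg2, Col4a1, Col4a2 and Fn1, and by less for Agrn and Nid1. The summed endothelial markers were also highest there, at 4397 CPM against 3324 in Input 1222 and 3482 in Input 1227, as were the pericyte markers (1125 against 874.0 and 1016 CPM). The summed microglial markers were lowest there (9689 against 16703 and 16449 CPM), and those of oligodendrocytes highest (30479 against 20242 and 21618 CPM). The part of these differences in the Input levels was not tested. The log2 difference within replicate number 1223 was 2.16 for Hspg2, 2.55 for Col4a1, 2.515 for Col4a2 and 2.06 for Fn1. Within 1222 and 1227 it was 2.96 and 2.91 for Hspg2, 2.96 and 2.80 for Col4a1, 3.02 and 2.87 for Col4a2, and 2.50 and 2.68 for Fn1.

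Fn1, the fibronectin gene, stood at 573.4, 744.0 and 548.0 CPM in Input 1222, 1223 and 1227 and at 3243, 3096 and 3520 CPM in Positive. Its log2 fold change was 2.40 ± 0.17 (SE, edgeR adjusted p = 7.68e-06). Relative to Col4a1, Fn1 was lower in every Positive library than in every Input library. It was counted at 1.68 ± 0.069 times Col4a1 in Input and 1.33 ± 0.22 times in Positive (SD, n = 3), a log2 difference of -0.36 with the smallest p the exact permutation test allows (0.1, adjusted 0.25).

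Sparc had the smallest fold change of the 8. It stood at 2368, 2569 and 2674 CPM in Input 1222, 1223 and 1227 and at 4496, 7624 and 4960 CPM in Positive. Positive 1223 was well above the other two, and still no Input library reached a Positive one. The log2 fold change was 1.17 ± 0.21 (SE, edgeR adjusted p = 0.00172), a 2.24-fold higher level, and it was 0.898 without Positive 1223 (adjusted p = 0.0046). Within replicate numbers the log2 difference was 0.93, 1.57 and 0.89 in 1222, 1223 and 1227.

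Relative to Col4a1, Sparc was counted at 7.20, 5.55 and 8.30 times in Input 1222, 1223 and 1227 and at 1.76, 2.82 and 2.20 times in Positive. This was the largest shift of the 5 ratios compared, with a log2 difference of -1.64 and fractions that did not overlap (exact permutation p = 0.1, the smallest possible, adjusted 0.25). Sparc is known to be transcribed by endothelial cells and also by microglia. All 19 microglial markers fell, against 29.4% of all genes tested. Their summed level went from between 9689 and 16703 CPM in Input to between 2050 and 4139 CPM in Positive, with no marker at 0 in Positive. The part of microglial RNA in the Sparc level was not tested.

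**Figure D2:**
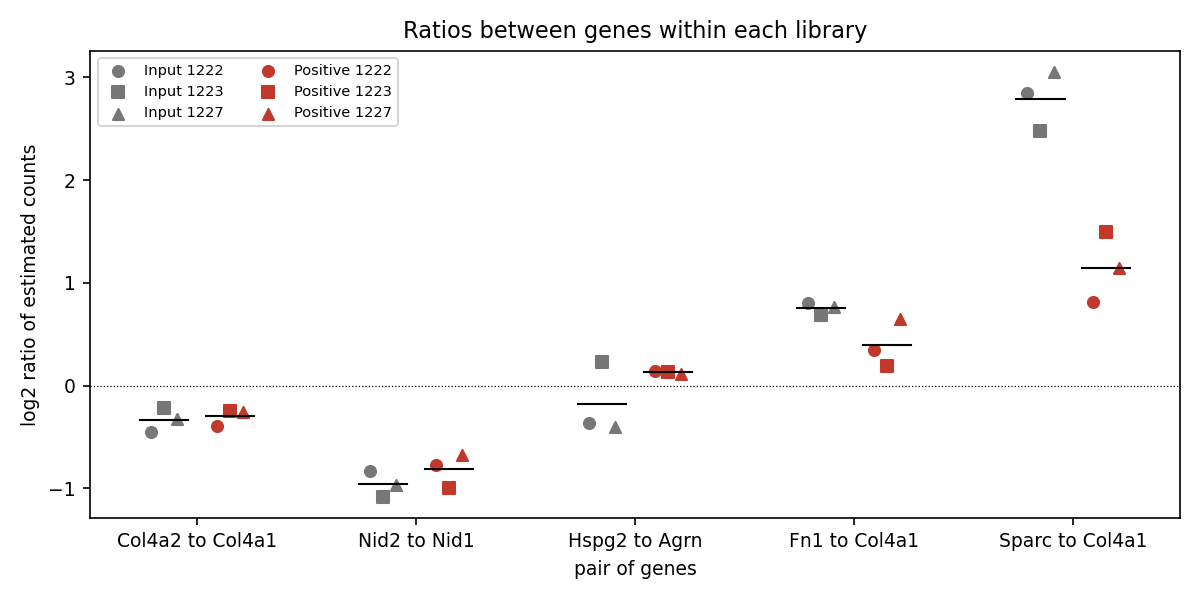
Log2 ratio of estimated counts between pairs of the genes within each library, with symbols for the replicate number and black lines for the mean of 3 libraries. The Col4a2 to Col4a1 ratio overlaps between fractions, while Sparc to Col4a1 falls from a mean of 2.79 in Input to 1.15 in Positive.

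Compared per length (CPM per kilobase of coding-transcript exons, GENCODE M21), Sparc was the most abundant in both fractions. Its level was 932.3 ± 57.2 in Input and 2092 ± 620 CPM per kilobase in Positive (SD, n = 3). Fn1 followed with 73.3 ± 12.6 and 387.6 ± 25.4, Col4a1 with 56.1 ± 11.96 and 378.8 ± 35.2, and Col4a2 with 46.3 ± 13.5 and 315.7 ± 32.6 CPM per kilobase. In each fraction the range of Fn1 over libraries overlapped with that of Col4a1, and that of Col4a1 with that of Col4a2. These differences were not tested. Within a library, Col4a1 was above Col4a2 in 3 of 3 Input and 3 of 3 Positive libraries, and Fn1 was above Col4a1 in 3 of 3 Input libraries and 1 of 3 Positive ones. Agrn came next in both fractions (22.5 ± 1.8 and 115.8 ± 6.4 CPM per kilobase).

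Nid1 and Hspg2 changed places per length. In Input Nid1 (14.2 ± 1.15 CPM per kilobase) stood above Hspg2 (11.3 ± 3.88) and Nid2 (9.12 ± 0.70), with Hspg2 overlapping both. In Positive Hspg2 (69.6 ± 4.38 CPM per kilobase) stood above Nid1 (52.3 ± 9.45) and Nid2 (36.7 ± 2.26) without overlap. With the longest coding transcript as the length, chosen as an alternative after the data were seen, both orders were the same.

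Set beside cell type markers, the fold changes of Col4a1, Col4a2 and Hspg2 lay within the range of the 15 endothelial markers (log2 2.52 to 3.20). Those of Fn1, Agrn, Nid2, Nid1 and Sparc lay below the lowest of them. The marker counts stand beside 26.1% higher and 29.4% lower over all genes tested. Pericyte markers rose in 11 of 13 cases with a median of 1.06, and their summed level went from between 874.0 and 1125 CPM to between 1601 and 2373 CPM. Of 8 fibroblast markers 6 fell and 1, Mgp, rose (median -1.28), and of 6 smooth muscle markers Tagln fell and the others did not pass. All 13 astrocyte markers fell (median -3.53), from summed levels between 7930 and 12196 CPM to between 686.0 and 1030 CPM. Perivascular macrophage markers rose in 8 of 10 cases but unevenly, at 3568, 1414 and 681.1 CPM in Positive 1222, 1223 and 1227 against 581.1 to 646.2 CPM in Input. Some markers met the submitters' filter through 1 fraction only. For Col1a1, Dcn, Gfap and Gjb6 it was Input, which favoured a fall, and for Higd1b and Ms4a7 it was Positive, which favoured a rise. No marker of these lists was at 0 in all Positive libraries, and the part of these cell types in the levels of the 8 genes was not tested.

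**Figure D3:**
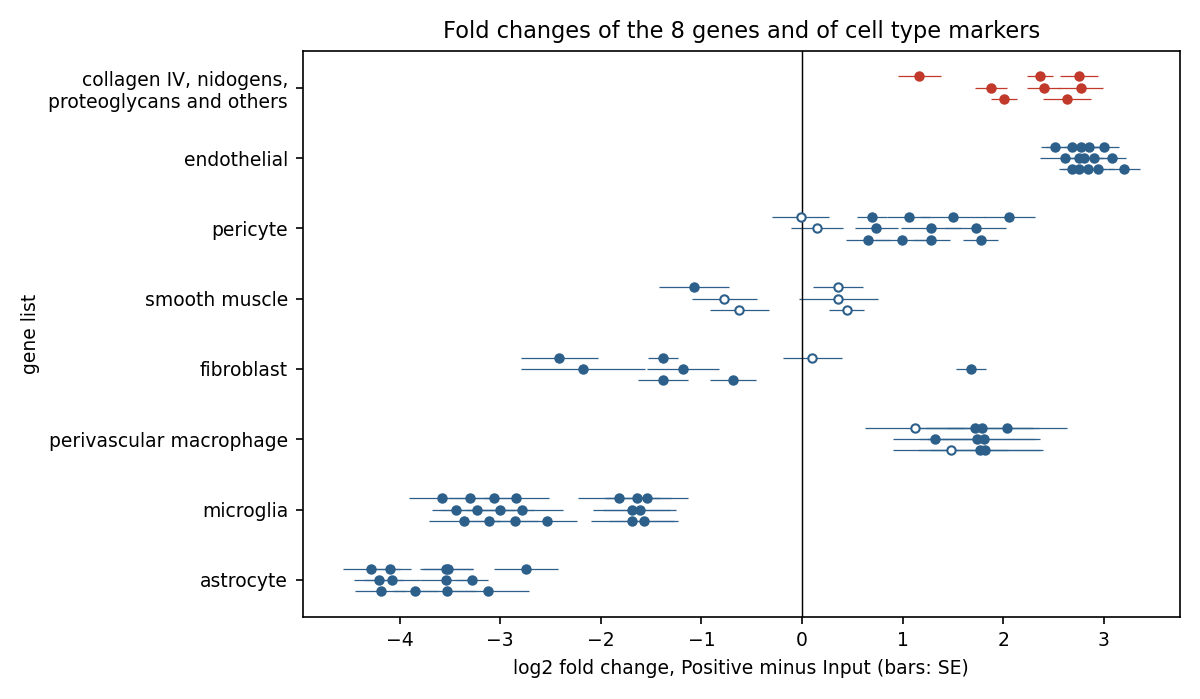
Log2 fold change (Positive minus Input, bars SE) of the 8 genes in red and of cell type markers in blue; filled points passed edgeR's test (adjusted p below 0.05) and open points did not. The collagen IV genes and Hspg2 fall in the endothelial range of 2.52 to 3.20, and Sparc at 1.17 lies apart from it.

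The partners of collagen IV in the sheet followed in part. Beside the list counts that follow stand 26.1% higher and 29.4% lower over all genes tested. A list near these shares shows nothing particular to it. Of the other collagen IV chains only Col4a5 was analysed here, and it fell from 13.5 ± 1.81 to 7.04 ± 0.94 CPM (SD, n = 3; log2 -0.91 ± 0.26 SE, edgeR adjusted p = 0.0149), a call that ended without Input 1222 (log2 -0.82), both libraries of 1222 (-0.90) or both of 1227 (-1.05). Col4a5 met the submitters' filter through Input only, which favoured a fall. Of 8 laminin chains 7 rose and none fell (median log2 1.71). Lamb2 had log2 1.91 ± 0.15, Lamc1 1.82 ± 0.14 and Lama4, an alpha chain of vascular laminin, 2.48 ± 0.23. Lama5, another alpha chain, had 2.21 ± 0.16. The call of Lama3 (1.27) ended without both libraries of 1222 (0.92) or of 1227 (1.13). Lama2, a chain linked to astrocytes and mural cells, did not pass (log2 -0.38, adjusted p = 0.26).

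Other components of the sheet split. Of 19 genes 8 rose, 4 fell and 7 did not pass (median log2 0.53), against 26.1% higher and 29.4% lower over all genes. The most abundant of them rose: Vwa1, a perlecan-binding protein, went from 383.0 ± 52.5 to 2789 ± 206 CPM (SD, n = 3; log2 2.865 ± 0.16), Egfl7 had log2 2.77 ± 0.17 and Tinagl1 2.32 ± 0.17. Pxdn, the peroxidase that crosslinks collagen IV, rose by log2 1.91 ± 0.22, and Col18a1, a collagen with heparan sulfate chains, by 1.31 ± 0.17. The 4 that fell were Fbln1 (log2 -2.87), Frem1 (-2.26), Thsd4 (-2.99) and Smoc1 (-4.02). All 4 were under the submitters' minimum of 50 counts in Positive 1223 and entered the table through Input only. That filter favoured a fall for such genes. The call of Frem1 ended without both libraries of 1222 (log2 -1.89, adjusted p = 0.060).

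Genes that make and export collagen also split, with 8 of 19 higher, 5 lower and 6 not passing (median log2 0.26). The shares over all genes were 26.1% higher and 29.4% lower. Serpinh1, the collagen chaperone HSP47, went from 234.2 ± 34.8 to 797.7 ± 116 CPM (SD, n = 3; log2 1.77 ± 0.17, edgeR adjusted p = 3.66e-05). Crtap, part of the prolyl 3-hydroxylase complex, had log2 1.999 ± 0.16, the COPII coat gene Sec24d 1.02 ± 0.15 and Mia3, the cargo receptor TANGO1, 0.63 ± 0.14. The call of Mia3 ended without both libraries of 1227 (log2 0.59, adjusted p = 0.077). That of Ppib (0.39) ended without Input 1222 (0.30), Input 1227 (0.41), Positive 1223 (0.36) or Positive 1227 (0.34). P4ha2 (0.78) lost it without Input 1223 (0.74), Input 1227 (0.69), Positive 1222 (0.65) or Positive 1227 (0.84). Lepre1 (P3h1, 0.68) lost it without both libraries of 1222 (0.67) or of 1227 (0.73). Leaving out libraries gave 4 to 7 higher genes in this list. The collagen galactosyltransferase Glt25d1 (Colgalt1) had log2 0.72 ± 0.14. P4hb and Plod1, abundant enzymes of proline and lysine hydroxylation, did not pass (log2 0.31 and 0.26, adjusted p = 0.065 and 0.13). With the replicate number as a block both passed (paired fit, log2 0.31 and 0.27, adjusted p = 0.021 and 0.037).

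The 5 lower genes of that list were P4ha1, a catalytic subunit of prolyl 4-hydroxylase (log2 -1.44 ± 0.17), Leprel1 (P3h2, -1.35 ± 0.38), Leprel4 (P3h4, -1.20 ± 0.19), Tmem38b (-1.14 ± 0.26) and Sec23a (-0.45 ± 0.13). Leprel1 met the submitters' filter through Input only, which favoured a fall. It lost its call without Input 1222 (log2 -0.94), Positive 1223 (-1.26) or Positive 1227 (-1.17). Sec23a lost its call without Input 1222 (-0.39), Input 1227 (-0.45), Positive 1222 (-0.41) or Positive 1227 (-0.44). Without Input 1222 or without Positive 1227, 3 of the list were lower.

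Perlecan and agrin carry heparan sulfate, and the enzymes that build and edit it showed no common direction. Of 19 genes 6 rose, 7 fell and 6 did not pass (median log2 0.14). These counts were not far from the 26.1% higher and 29.4% lower of all genes. The higher ones were Extl3 at log2 1.27 ± 0.23, Ext2 at 0.81 ± 0.13, the epimerase Glce at 1.40 ± 0.23, Fam20b at 0.62 ± 0.18, Xylt2 at 0.56 ± 0.19 and Hs3st1 at 0.44 ± 0.15. Among the lower ones were the xylosyltransferase Xylt1 (-3.42 ± 0.35), the linker glucuronyltransferase B3gat3 (-0.70 ± 0.15) and the sulfatase Sulf2 (-2.20 ± 0.27). Xylt1 met the submitters' filter through Input only, which favoured a fall. Ndst1, an abundant sulfotransferase of the list, did not pass (log2 0.17, adjusted p = 0.33), nor did Ext1, the partner of Ext2 in chain polymerisation (-0.20, adjusted p = 0.45).

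Some of these higher calls lay near the threshold (edgeR adjusted p = 0.034 for Xylt2 and 0.030 for Hs3st1) and ended with fewer libraries. The call of Xylt2 ended when Positive 1222 (log2 0.51), Positive 1223 (0.55) or Positive 1227 (0.62) was left out, and that of Fam20b without Positive 1223 (0.56). The call of Hs3st1 ended when Input 1222 (0.41), Input 1227 (0.38), Positive 1223 (0.42) or Positive 1227 (0.40) was left out. The count of higher genes was 3 without Positive 1223. Among the lower genes, the call of B3gat3 ended without both libraries of 1227 (-0.68). That of Sulf1 (-0.46) ended without Input 1222 (-0.40), Positive 1222 (-0.42) or Positive 1227 (-0.44).

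Receptors for these proteins moved both ways, with 8 of 22 higher, 11 lower and 3 not passing (median log2 -0.33). Over all genes tested 26.1% were higher and 29.4% lower. Leaving out libraries gave 8 to 11 lower receptor genes. Itga7 (log2 -0.64), Itga9 (-1.05) and Itgb3 (-0.48) lost their calls in several of these fits. The higher ones included the collagen IV receptor chain Itga1 (41.7 ± 6.78 to 285.4 ± 55.3 CPM, SD, n = 3; log2 2.78 ± 0.19), the fibronectin receptor chain Itga5 (2.13 ± 0.13), the laminin receptor chains Itga3 (1.58 ± 0.14) and Itga6 (1.86 ± 0.17), and Itga4 (1.79 ± 0.26). Their shared beta chain Itgb1 had log2 1.46 ± 0.12, and Bcam, a receptor of laminin alpha-5, had 2.39 ± 0.16. Stab1, a scavenger receptor that binds SPARC and is also a perivascular macrophage marker, had log2 1.33 ± 0.42. Its level was 1399, 622.6 and 364.1 CPM in Positive 1222, 1223 and 1227 against 282.7 to 345.7 CPM in Input. Its call ended without Input 1223 (1.25) or Input 1227 (1.34), and the value was 0.628 without Positive 1222.

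Lower receptor genes included Itgav (log2 -2.125 ± 0.13) and its partners Itgb5 (-2.49 ± 0.32) and Itgb8 (-3.89 ± 0.22), the collagen receptor kinase Ddr1 (-3.80 ± 0.25) and the agrin receptor Lrp4 (-1.71 ± 0.18). Of these, Itgb8 met the submitters' filter through Input only, which favoured a fall. Dag1, the dystroglycan gene, whose product binds agrin, perlecan and laminin, did not pass (log2 0.08, adjusted p = 0.66), and its sign was negative without scaling beyond library size (-0.077).

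Genes of matrix turnover were evenly divided, with 9 of 20 higher, 9 lower and 2 not passing (median log2 0.02). The inhibitor Timp3 rose (log2 1.16 ± 0.20), as did the protease gene Adamts1 (1.53 ± 0.23), the plasminogen activator Plat (1.37 ± 0.13) and Reck, a membrane-anchored regulator of metalloproteinases (2.405 ± 0.26). Lower genes included the serine protease Htra1 (log2 -2.003 ± 0.16), the protease inhibitor Serpine2 (-1.53 ± 0.20), Mmp14 (-2.26 ± 0.15), Adamts4 (-3.90 ± 0.20), Timp2 (-1.40 ± 0.17) and Timp4 (-3.83 ± 0.26). Of these, Adamts4 and Timp4 met the submitters' filter through Input only, which favoured a fall.

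Of 6 relatives of Sparc 1 rose, 3 fell and 2 did not pass (median log2 -2.20). Among those that fell, Spock3 and Smoc1 met the submitters' filter through Input only, which favoured a fall. The rising one was Spock2, a proteoglycan gene, which went from 1248 ± 250 to 9383 ± 1270 CPM (SD, n = 3; log2 2.91 ± 0.20). Spock3 fell by 4.81 ± 0.31 on the log2 scale, and Sparcl1 did not pass (log2 -0.27, adjusted p = 0.26) except without Input 1223, where it fell (-0.43) and 5 of the 6 were lower.

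Fibril-forming and other collagens, Col8a1 among them, are listed here as interstitial collagens. Unlike Col4a1 and Col4a2, most were lower in Positive. Of 9 genes 8 fell and 1 rose (median log2 -2.41), and leaving out libraries gave 6 to 8 lower. The call of Col3a1 (log2 -0.69) ended without Input 1222 (-0.46), Input 1227 (-0.72), Positive 1222 (-0.63) or Positive 1223 (-0.64). That of Col8a1 (-0.82) ended without Input 1222 (-0.73), Input 1227 (-0.75), Positive 1222 (-0.76) or Positive 1227 (-0.62). Col1a2 had log2 -1.38 ± 0.25, Col1a1 -2.41 ± 0.39, Col6a1 -4.07 ± 0.50 and Col6a2 -2.59 ± 0.33. Col1a1, Col6a1 and Col6a2 met the submitters' filter through Input only, which favoured a fall. So did at least 1 further gene that fell, with a mean of 1.485 CPM in Positive. The median of the list is the value of Col1a1, so it rests on such a gene. Col5a2, the one that rose (log2 0.63 ± 0.20, adjusted p = 0.0284), lost that call when Input 1223 (0.49), Input 1227 (0.65), Positive 1222 (0.53) or Positive 1223 (0.65) was left out.

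The mean profile of the 8 genes over the 6 libraries was matched most closely by Rarg, Ifitm3, Mkl2, P2ry2 and Tsc22d1. Genes with predicted, Riken, pseudogene or accession-type names were left out of this ranking. Likeness was the root mean square difference of log2 CPM centred on each gene's mean over the 6 libraries, and it was 0.07 for Rarg, 0.08 for Ifitm3, Mkl2, P2ry2 and Tsc22d1. Among the 8 genes themselves the difference from this mean profile was smallest for Agrn (0.10) and largest for Sparc (0.60). Rarg had a log2 fold change of 2.26 ± 0.13 and Tsc22d1 one of 2.25 ± 0.16.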

How the data were processed

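The authors deposited 1 table that gives, per gene, an estimated count and a log2 normalised value in 3 Input and 3 Positive libraries. A gene needed a raw value of 50 or more in every library of at least 1 fraction, per the file headers. In both fractions 8509 genes met it, in Input only 1897 and in Positive only 583. For a gene kept through 1 fraction only, this rule favours a higher level there. Those kept through Input only include Col4a5, Fbln1, Frem1, Thsd4, Smoc1, Leprel1, Xylt1, Itgb8, Adamts4, Timp4, Spock3, Col1a1, Col6a1 and Col6a2. Per the submitters' processing notes the build was mm10 and a tool was DESeq. No aligner, counter or strand setting is named there. One alternative used the deposited log2 values.

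The deposited estimated counts were rounded, then analysed in R 4.3.3 by edgeR 4.0.16, using TMM scaling, filterByExpr (minimum count 10, which removed 0 genes), the quasi-likelihood test of fraction alone, and Benjamini-Hochberg adjustment over 10989 genes with a threshold of 0.05. Fold changes use a prior count of 2, and SE is the fold change divided by the root of the F statistic. The script was tested on simulated data. Alternatives were DESeq2 1.42.0, limma 3.58.1, other scalings and filters, a replicate block, and leaving out libraries.

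Deviations from fraction means correlated at 0.45, 0.23 and 0.30 between Input and Positive of 1222, 1223 and 1227, so the numbers were taken to pair the libraries. The 8 genes and all lists were chosen with earlier results of these data known. Named genes are the 8, the 3 most abundant of each list and those called against its main direction, the gate genes, and the 5 nearest profiles; other examples were chosen after values were seen. Of the list genes 4 were matched by Entrez identifier under older symbols (P3h1, P3h2, P3h4, Colgalt1), and unmatched ones were not analysed here.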

Additional observations from a re-analysis of the deposited data

How the results depend on the processing

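All 8 genes were higher in Positive, past the threshold, under each of 16 alternatives (128 of 128 values), the replicate block among them, where 8 of 8 passed. Leaving out libraries gave log2 fold changes from 2.65 to 2.94 for Col4a1, 2.64 to 3.03 for Col4a2, 2.46 to 2.94 for Hspg2, and 0.898 to 1.302 for Sparc. Without scaling beyond library size the median over all genes moved from 0.03 to -0.13. In that setting 3 heparan sulfate and 0 interstitial collagen genes were higher, and Dag1, not called, had -0.077. Without both libraries of 1227, 1741 of all genes were higher, against 2870. Leaving out libraries moved the higher counts to between 4 and 7 (collagen processing), 3 and 6 (heparan sulfate) and 0 and 1 (interstitial collagens). For laminins they lay between 6 and 7, other sheet components 8 and 10, receptors 7 and 8, and matrix turnover 8 and 9. It moved the lower counts to between 0 and 1 (other collagen IV), 3 and 5 (collagen processing) and 3 and 5 (SPARC family). Lower counts lay between 8 and 11 for receptors, 5 and 7 for heparan sulfate and 6 and 8 for interstitial collagens. For other sheet components they lay between 3 and 5, and for matrix turnover between 9 and 10. The log2 ratio of Col4a2 to Col4a1 differed by -0.029 to 0.0898, turning sign without Input 1222 (-0.029), and the cause was not tested. The block changed the calls of P4hb and Plod1 among the named genes. Of the other list genes, it called Fbln2 and Fbln5 higher and Fras1 lower, which the main fit did not. Over all genes the block gave 3298 higher and 3482 lower, against 2870 and 3227 in the main fit.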
